A study of Mus musculus with 10 samples.

Results

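Mmp9, a secreted matrix metalloprotease that marks fast motor neurons, was read together with the other gelatinase Mmp2, the membrane-bound metalloproteases Mmp14, Mmp15, Mmp16, Mmp17 and Mmp24, and the tissue inhibitors of metalloproteases Timp2, Timp3 and Timp4. These 10 genes were picked by symbol out of 51912 genes in the deposited count files. The mice were 5 HSA-NRTN transgenics (3 females and 2 males), in which neurturin is made in muscle fibres from the human skeletal actin promoter, and they were set against 5 wild-type littermates (3 females and 2 males). The transgene acts in muscle while the RNA came from the motor neurons that innervate it. Motor neurons of the lumbar cord were cut by laser from frozen sections, each mouse gave 1 pool and each pool 1 library, and only cells with a visible nucleolus and a size above a minimum were taken, so small motor neurons are largely missing from both groups. No age, strain or treatment is given in the labels.

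Matrix metalloproteases are zinc enzymes that are made as inactive precursors and, once cut, digest the extracellular matrix and trim receptors and adhesion molecules at the cell surface. Tissue inhibitors of metalloproteases bind the active site and block it. In the spinal cord of mice, Mmp9 is made by large fast motor neurons and is low or absent in slow ones, and its presence goes with early loss of motor neurons in models of amyotrophic lateral sclerosis. The membrane-bound members act at the surface of the cell that makes them.

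All 7 proteases of the set carry the zinc-binding site of the catalytic domain, which is shown here because it is what the inhibitors cover. Each coding sequence held 1 in-frame match, 33 bases long, and the codons of the 3 zinc-binding histidines are in capitals. Sequences are 5′ to 3′ on the coding strand, which is the plus strand for all 7 genes, from GENCODE M21 on GRCm38.
Mmp9: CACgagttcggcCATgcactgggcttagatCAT
Mmp2: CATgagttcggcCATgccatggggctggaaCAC
Mmp14: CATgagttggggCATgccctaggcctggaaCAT
Mmp15: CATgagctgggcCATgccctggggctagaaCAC
Mmp16: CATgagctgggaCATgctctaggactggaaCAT
Mmp17: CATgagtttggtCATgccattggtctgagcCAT
Mmp24: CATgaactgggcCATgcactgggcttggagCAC
The Mmp9 site lies in exon 8 at chr2:164951133-164951165 and that of Mmp2 in exon 8 at chr8:92839279-92839311. The sites of the membrane-bound members all lie in exon 5, at chr14:54437627-54437659 for Mmp14, chr8:95368585-95368617 for Mmp15, chr4:18051748-18051780 for Mmp16, chr5:129596597-129596629 for Mmp17 and chr2:155807427-155807459 for Mmp24. Against Mmp9, 26 of the 33 bases were identical in Mmp24, 25 in Mmp2, Mmp14 and Mmp15, 23 in Mmp16 and 21 in Mmp17. Even in this conserved stretch every pair with Mmp9 thus differed at 7 or more positions. The search required the histidine codons and some other bases, so part of the identity was set by the search. How close the whole coding sequences are was not compared.

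Libraries held between 1875971 and 6641695 counts in genes, and replicate 2 of the HSA-NRTN group was the shallowest. Motor neuron markers (Chat, Slc18a3, Slc5a7, Isl1, Mnx1, Prph and Nefh) summed to 5518 to 8362 CPM (counts scaled to a common library size) in HSA-NRTN and 6478 to 8344 CPM in wild-type libraries, and all 7 markers had counts. Of the 7, 5 were higher and 2 lower in HSA-NRTN, none with an unadjusted p under 0.05 (edgeR). Chat, among the 5, was at 98.5 to 151 CPM in HSA-NRTN and 70.7 to 98.1 CPM in wild-type libraries. Nefh, among the 2, was at 2133 to 4889 CPM in HSA-NRTN and 4339 to 4748 CPM in wild-type libraries. HSA-NRTN replicate 2 stood apart by its glial markers. Its 6 astrocyte markers summed to 748 CPM against 46.4 to 295 CPM in the other 9 libraries, and its 6 oligodendrocyte markers to 1447 CPM against 199 to 641 CPM. Most of the astrocyte sum was Slc1a2, at 665 CPM. Gfap and Aldh1l1 were also highest in this library, at 17.8 CPM each. Slc1a3 was at 0 CPM in it, and Gja1 and Aqp4 were higher in other libraries. The oligodendrocyte markers were all highest in it except Mog. Neutrophils, a common source of Mmp9, left little trace, with S100a9, Ly6g and Retnlg at 0 in every library and S100a8 at 0.54 CPM in HSA-NRTN replicate 2 alone. The 7 microglia markers summed to 1.48 to 10.8 CPM in HSA-NRTN and 2.41 to 15.0 CPM in wild-type libraries. Of 7 pericyte and fibroblast markers 2 were tested, and Rgs5, a pericyte gene, did not pass (edgeR, unadjusted p = 0.0209, adjusted p = 0.921), with 71.9 CPM in HSA-NRTN replicate 2 against 0.20 to 10.1 CPM in the other libraries. The other, the fibroblast gene Dcn, had a log2 fold change in the opposite direction (-2.28, SE 1.10, edgeR, unadjusted p = 0.0560, adjusted p = 0.999), with 0.99 to 56.0 CPM in HSA-NRTN libraries against 289 and 345 CPM in wild-type replicates 2 and 4 and 0.23 to 27.7 CPM in wild-type replicates 1, 3 and 5. Lum, also a fibroblast gene, had 0 counts in HSA-NRTN and 103 counts in wild-type libraries and was not tested.

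Timp2 was the most abundant transcript of the set and Mmp9 the most abundant protease. Per merged exon length, Timp2 reached 176 ± 78.0 TPM (counts per exon length, scaled to a common total) in HSA-NRTN and 210 ± 55.0 TPM in wild-type pools, and Mmp9 reached 59.8 ± 42.3 TPM in HSA-NRTN and 83.8 ± 19.0 TPM in wild-type mice (SD, n = 5 each). Mmp17, Mmp15 and Mmp16 followed with means over all 10 libraries of 18.1, 14.1 and 11.1 TPM, and Timp3, Mmp24 and Timp4 with 2.31, 1.85 and 1.80 TPM. Mmp14 and Mmp2 lay at 0.15 and 0.11 TPM.

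Among the 8 members with enough counts to be tested, each neighbour in this order was compared with the next by an exact two-sided sign-flip test of the log2 ratio within libraries, adjusted over the 7 pairs, where the smallest possible unadjusted p is 0.00195. The order came from the means of the same libraries, so the p-values do not allow for the choice of pairs. Timp2 exceeded Mmp9 in 9 of 10 libraries (mean log2 ratio 1.55, exact test, adjusted p = 0.0137). Mmp9 exceeded Mmp17 in 10 of 10 (1.89, exact test, adjusted p = 0.0137), and Mmp16 exceeded Timp3 in 9 of 10 (3.16, exact test, adjusted p = 0.0410). Mmp17, Mmp15 and Mmp16 did not differ from one another beyond their spread as neighbours (exact test, adjusted p = 0.273 and 0.443), nor did Timp3, Mmp24 and Timp4 (exact test, adjusted p = 0.803 for both pairs). The members thus fell into a high inhibitor, a high protease, a middle group of 3 membrane-bound proteases, a low group of 3 and 2 genes near 0. The step from the middle to the low group was called in 4 of 10 repeats with 1 library left out. Without length scaling it missed the threshold, as did the step from Mmp9 to Mmp17 (exact test, adjusted p = 0.0501 for both).

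**Figure D1:**
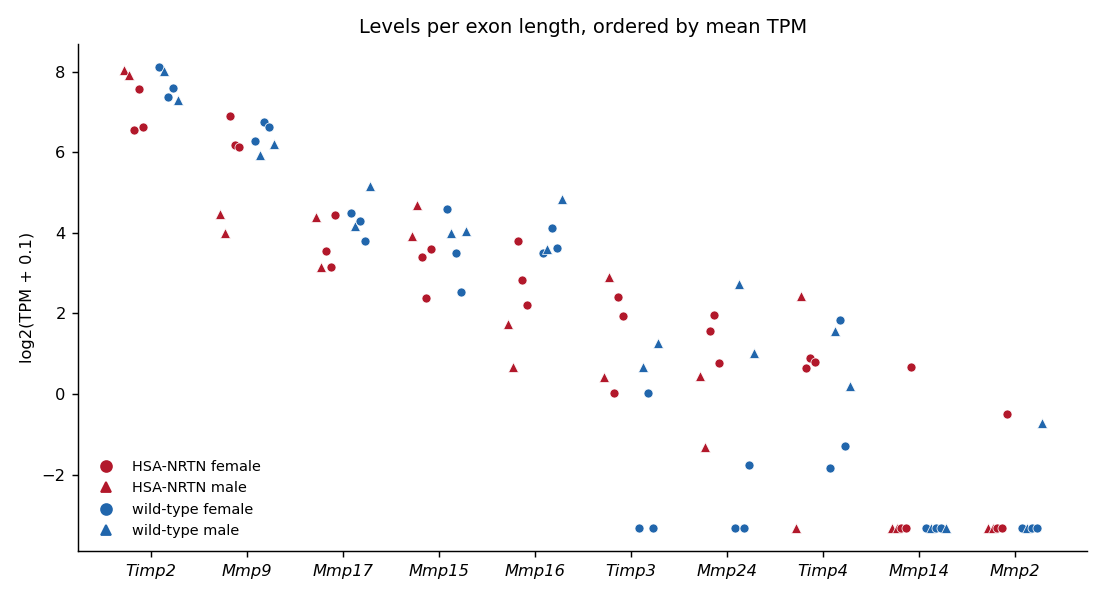
Level of each of the 10 genes per library as log2(TPM + 0.1), genes ordered by mean TPM, HSA-NRTN libraries left of wild-type libraries, circles for females and triangles for males. Timp2 and Mmp9 lie above the other genes in most libraries, the 2 male HSA-NRTN libraries lie below all others for Mmp9, and libraries at 0 counts form the bottom row.

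The comparison of genotypes asks whether neurturin from muscle is accompanied by a change in these transcripts in motor neurons. No member passed an adjusted p of 0.05 over all 11630 genes tested with edgeR's quasi-likelihood test, where 1 gene (0.0086%) did. Of the 8 members tested, 1 had an unadjusted p under 0.05, Mmp16, which was lower in HSA-NRTN. Of all genes tested, 562 or 4.83% had an unadjusted p under 0.05, and 2.42% were also lower in HSA-NRTN. The log2 fold change was negative for 5 members (Mmp9, Mmp15, Mmp16, Mmp17 and Timp2) and positive for 3 (Mmp24, Timp3 and Timp4), with a median of -0.28, against 5648 positive and 5982 negative and a median of -0.015 over all genes tested. For no member did the HSA-NRTN and wild-type libraries separate without overlap, which they did for 145 genes or 1.25% of those tested. Since these are pools, fewer expressing cells in a pool and less RNA per cell cannot be told apart.

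**Figure D2:**
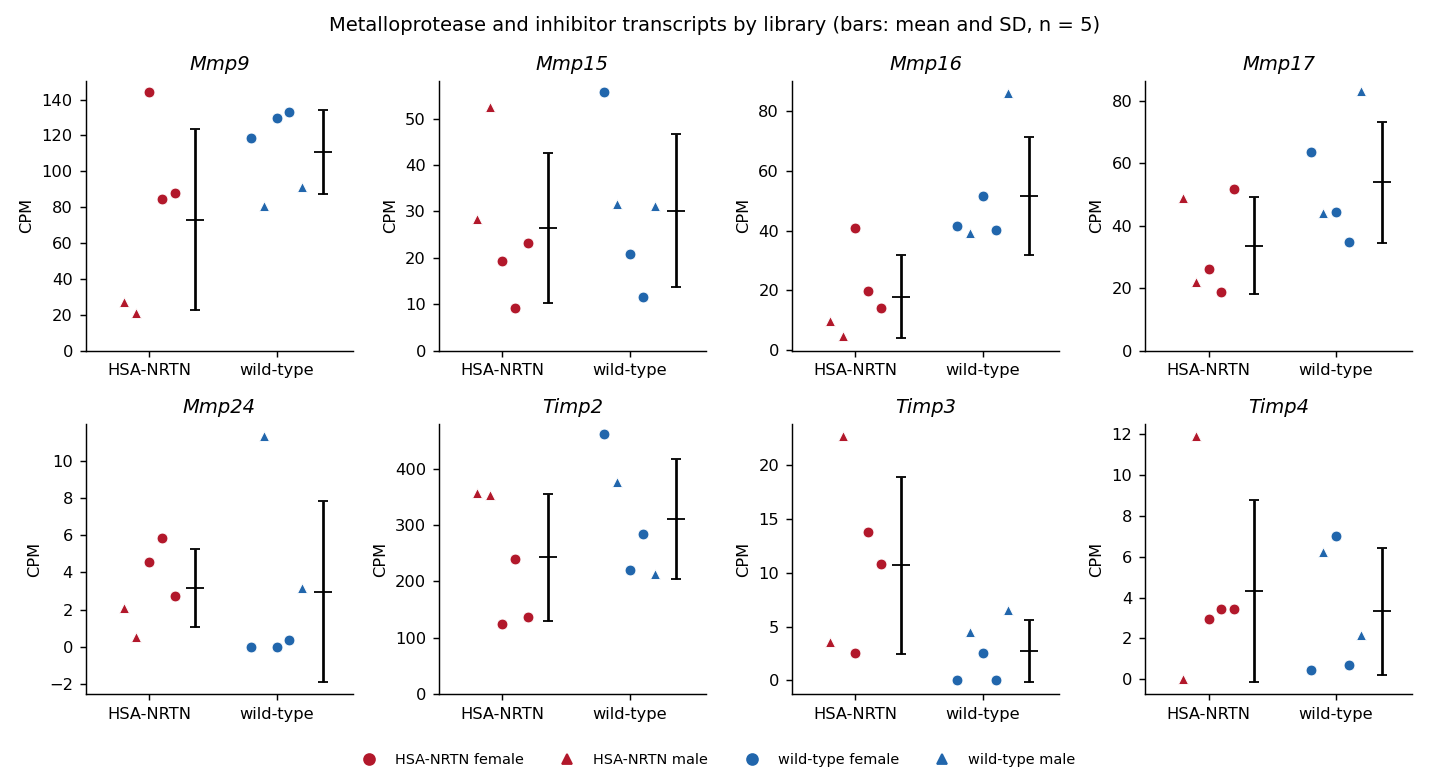
CPM of the 8 tested members in each library, HSA-NRTN left and wild-type right, circles for females and triangles for males, with the mean and SD of the 5 libraries beside them. For Mmp16, 4 of 5 HSA-NRTN libraries lie below every wild-type library, and for Mmp9 the 2 lowest libraries are the HSA-NRTN males at 27.3 and 21.1 CPM.

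Mmp9 (ENSMUSG00000017737, chromosome 2, 164940780 to 164955850) had 27.3, 21.1, 144, 84.7 and 88.0 CPM in HSA-NRTN replicates 1 to 5, against 118, 80.7, 130, 133 and 91.4 CPM in wild-type replicates 1 to 5. The HSA-NRTN libraries spanned from far below to above the wild-type range, with replicates 1 and 2 below all wild-type libraries and replicate 3 above them. The means were 73.0 ± 50.5 CPM in HSA-NRTN and 111 ± 23.5 CPM in wild-type mice (SD, n = 5 each). Its log2 fold change was -0.59 (SE 0.42), which missed the threshold (edgeR, unadjusted p = 0.182, adjusted p = 0.999). With sex as a covariate it was -0.86 (unadjusted p = 0.0160, adjusted p = 0.725). The animal numbers in the labels fall into 2 runs, and it was -0.53 with the runs as a covariate and -0.32 within the later run. The HSA-NRTN mice of the later run, replicates 4 and 5, are females, while its wild-type replicates 2 and 5 are males. The value within the later run thus mixes genotype with sex.

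Of the membrane-bound proteases, Mmp16 had the largest log2 fold change of the 4 tested, though it did not pass over all genes. Mmp16, also called MT3-MMP, is anchored by a transmembrane segment and lies on chromosome 4 (ENSMUSG00000028226, 17852893 to 18119145). It had 9.79, 4.86, 41.0, 20.0 and 14.1 CPM in HSA-NRTN replicates 1 to 5, against 41.5, 39.1, 51.6, 40.1 and 86.1 CPM in wild-type replicates 1 to 5. Thus 4 of 5 HSA-NRTN libraries lay below every wild-type library, and replicate 3 lay inside the wild-type range. Mmp16 averaged 17.9 ± 14.1 CPM in HSA-NRTN and 51.7 ± 19.9 CPM in wild-type mice (SD, n = 5 each), 2.84-fold lower in the fit (log2 fold change -1.51, SE 0.48), with an unadjusted p of 0.00663 and an adjusted p of 0.701 in edgeR. The difference kept its direction within the later run of animal numbers, which holds 2 HSA-NRTN and 4 wild-type mice (-1.65, edgeR, adjusted p = 0.849). With 1 library left out, the log2 fold change ran from -2.06 (without HSA-NRTN replicate 3) to -1.23. The lowest adjusted p among these fits was 0.133 (edgeR). The later run holds no HSA-NRTN male, so its value mixes genotype with sex. The earlier run holds 1 wild-type mouse and gave no value of its own.

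Mmp17, which is held to the membrane by a lipid anchor (ENSMUSG00000029436, chromosome 5, 129584169 to 129611099), had 48.9, 22.2, 26.0, 19.0 and 51.8 CPM in HSA-NRTN replicates, against 63.6, 44.2, 44.3, 34.8 and 83.1 CPM in wild-type replicates. The 3 lowest HSA-NRTN libraries were under every wild-type library, and the other 2 lay within their range. Its log2 fold change was -0.68 (SE 0.37, edgeR, unadjusted p = 0.0837, adjusted p = 0.999).

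Mmp15, a transmembrane protease (ENSMUSG00000031790, chromosome 8, 95352268 to 95375080), ranged from 9.12 to 52.4 CPM in HSA-NRTN and from 11.5 to 55.8 CPM in wild-type libraries, with medians of 23.2 CPM in HSA-NRTN and 31.1 CPM in wild-type. The groups overlapped over nearly their whole range, and the log2 fold change was -0.20 (SE 0.49). Mmp24, a transmembrane protease of neurons (ENSMUSG00000027612, chromosome 2, 155775342 to 155818366), had raw counts of 7, 1, 25, 41 and 11 in HSA-NRTN replicates, against 0, 40, 0, 2 and 16 in wild-type replicates. All HSA-NRTN libraries held at least 1 count, while 2 wild-type libraries held 0 and wild-type replicate 2 held most counts of its group, so the log2 fold change of 0.14 (SE 1.19) rests on few counts. Mmp24 shares 637 exon bases with BC029722 on the opposite strand, out of 4683, and the kit does not mark strand, so reads over those shared bases cannot be told apart.

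Mmp14 and Mmp2 were nearly undetected. Mmp14, the main activator of the Mmp2 precursor (ENSMUSG00000000957, chromosome 14, 54431612 to 54445364), had 13 counts, all in HSA-NRTN replicate 5 at 3.21 CPM, and 0 counts over the wild-type libraries, which allows up to 0.130 CPM over that group. Mmp2, the other gelatinase (ENSMUSG00000031740, chromosome 8, 92827291 to 92853420), had 3 counts in HSA-NRTN replicate 5 and 3 in wild-type replicate 5, and 0 in the other 8 libraries. Neither gene was tested. Such limits allow for counting error only, because reads from PCR copies of 1 molecule are not independent.

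Among the inhibitors, none passed the test, Timp2 made up most of the inhibitor RNA and Timp3 had the largest log2 fold change. Timp2 inhibits most members of the family and also links the Mmp2 precursor to Mmp14 for activation. It lies on the minus strand of chromosome 11 (ENSMUSG00000017466, 118301069 to 118355740). It had 357, 354, 124, 241 and 138 CPM in HSA-NRTN replicates 1 to 5, against 463, 376, 220, 284 and 213 CPM in wild-type replicates 1 to 5. HSA-NRTN replicates 3 and 5 lay below all wild-type libraries and the other 3 inside their range. Its means of 242.6 ± 113 CPM in HSA-NRTN and 311 ± 107 CPM in wild-type mice (SD, n = 5 each) gave a log2 fold change of -0.36 (SE 0.33, edgeR, adjusted p = 0.999).

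Timp3, which binds to the matrix and also inhibits ADAM proteases (ENSMUSG00000020044, chromosome 10, 86300372 to 86349506), had raw counts of 12, 42, 14, 97 and 44 in HSA-NRTN replicates, against 0, 16, 11, 0 and 33 in wild-type replicates. That is 3.56, 22.7, 2.56, 13.8 and 10.8 CPM in HSA-NRTN, against 0, 4.53, 2.58, 0 and 6.54 CPM in wild-type libraries. HSA-NRTN replicates 2, 4 and 5 lay above all wild-type libraries, and replicates 1 and 3 lay among them. The log2 fold change was 1.95 (SE 1.08, edgeR, unadjusted p = 0.0893, adjusted p = 0.999). The highest value was in HSA-NRTN replicate 2, the library with the highest glial marker sums, and without that library the log2 fold change was 1.49; the part of glial RNA in it was not tested. Timp3 lies within Syn3 and shares 1733 of its 8144 exon bases with it on the opposite strand, so reads over those bases are uncertain.

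Timp4 (ENSMUSG00000030317, minus strand of chromosome 6, 115241892 to 115252205) is an inhibitor found in heart and brain. It had 0, 11.9, 2.93, 3.42 and 3.45 CPM in HSA-NRTN replicates, against 0.46, 6.23, 7.04, 0.69 and 2.18 CPM in wild-type replicates, so the groups overlapped widely. Its log2 fold change was 0.36 (SE 1.04), and -0.41 without HSA-NRTN replicate 2. It shares 90 exon bases with Syn2 on the opposite strand.

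Mean Mmp9 was higher in females than in males in both genotypes, although the difference missed the threshold over all genes. In HSA-NRTN mice the females had 144, 84.7 and 88.0 CPM, against 27.3 and 21.1 CPM in the males. In wild-type mice the females had 118, 130 and 133 CPM, against 80.7 and 91.4 CPM in the males. Within each genotype all females lay above all males. How many of all genes tested do so was not counted, so this cannot be read as particular to Mmp9. The 2 HSA-NRTN males, replicates 1 and 2, are also the libraries with the fewest gene counts, 3257700 and 1875971, and the lowest shares of reads counted to genes, 23.4% and 13.5% against 24.8% to 42.3% in the other 8. They held the interneuron gene Gad2 at 38.9 and 53.0 CPM against 0 to 8.13 CPM in the others, while the sum of all 6 interneuron markers was 249 and 245 CPM in them, 44.0 to 195 CPM in the other HSA-NRTN libraries and 5.16 to 374 CPM in wild-type libraries. Gad1 was at 0.59 and 3.78 CPM in them, against 6.96 CPM in HSA-NRTN replicate 3. Slc32a1 was at 4.45 and 25.9 CPM, against 25.9 CPM in wild-type replicate 1. Slc6a5 and Slc17a6 were highest in wild-type replicates 1 and 5, at 146 and 300 CPM. The part of these differences in the Mmp9 values was not tested. The log2 difference between females and males, with genotype in the model, was 1.28 (SE 0.33, edgeR, unadjusted p = 0.00172), but did not pass over all genes (adjusted p = 0.359). For sex, 1 gene (0.0086%) passed and 1302 genes (11.2% of those tested, with 6.42% of those tested also higher in females) had an unadjusted p under 0.05, as did 1 of the 8 members, Mmp9. DESeq2 called Mmp9 (adjusted p = 0.0168), as did edgeR with no filter beyond 1 count (adjusted p = 0.0160). Without HSA-NRTN replicates 1 and 2, an alternative chosen after seeing the data, the log2 difference was 0.57 (unadjusted p = 0.120).

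The genotype differences of several members lay apart in females and males, without passing over all genes. The interaction, the genotype difference in females minus that in males, had an unadjusted p under 0.05 for 4 of the 8 members tested, against 598 genes or 5.14% of all genes tested, and none of these passed over all genes (adjusted p = 0.922 for each, edgeR). It was 1.56 (SE 0.50, unadjusted p = 0.00797) for Mmp9, 2.24 (SE 0.81, unadjusted p = 0.0160) for Mmp16, -1.22 (SE 0.57, unadjusted p = 0.0498) for Timp2 and 7.20 (SE 2.05, unadjusted p = 0.00364) for Mmp24. The value of Mmp24 rests on few counts, with 0, 0 and 2 counts in the wild-type females, so its size and SE are not precise.

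The 2 male mice of each group gave log2 fold changes of -1.83 (SE 0.52) for Mmp9 and -3.07 (SE 0.73) for Mmp16, and the 3 females of each gave -0.25 (SE 0.30) and -0.80 (SE 0.46), none past an adjusted p of 0.05. Timp2 had 0.26 (SE 0.40) in males and -0.92 (SE 0.36) in females. The values in males and the interaction rest on HSA-NRTN replicates 1 and 2, the only HSA-NRTN males. These libraries had the fewest gene counts (3257700 and 1875971) and the lowest shares of reads counted to genes (23.4% and 13.5%). The part of this in the values was not tested. Both HSA-NRTN males carry animal numbers of the earlier run and both wild-type males numbers of the later run, so genotype and run of animal numbers cannot be told apart among males. The labels do not say what the runs stand for. With the runs as a covariate, an alternative chosen after seeing the data, the interaction was 1.83 for Mmp9 and 2.72 for Mmp16 (unadjusted p = 0.00792 and 0.00977), 6.84 for Mmp24 (unadjusted p = 0.0125) and -0.97 for Timp2 (unadjusted p = 0.219), and none passed over all genes. That of Timp2 also had an unadjusted p of up to 0.222 with 1 library left out, the highest without wild-type replicate 5.

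**Figure D3:**
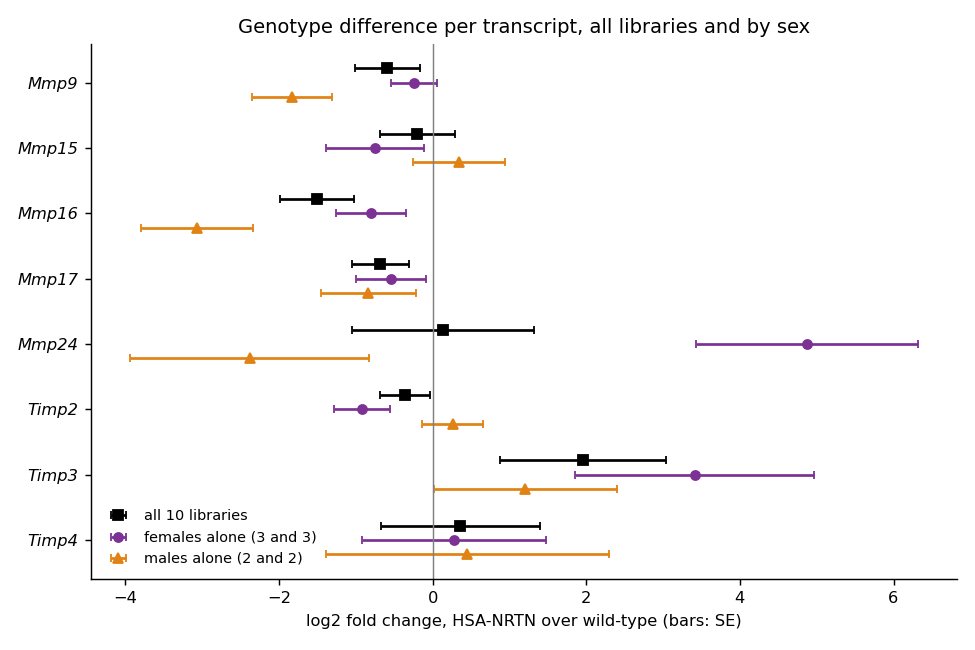
Log2 fold change of HSA-NRTN over wild-type for each tested member with all 10 libraries, in females alone and in males alone, bars showing the SE back-calculated from the F test. Mmp9 and Mmp16 lie at -1.83 and -3.07 in males and at -0.25 and -0.80 in females, while Timp2 lies at 0.26 in males and -0.92 in females.

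The balance of inhibitor to protease followed the same libraries. The ratio of Timp2 to Mmp9 TPM was 11.9, 15.3, 0.78, 2.58 and 1.42 in HSA-NRTN replicates 1 to 5, against 3.55, 4.23, 1.54, 1.93 and 2.12 in wild-type replicates 1 to 5. The 2 HSA-NRTN males stood above every other library and 2 of the 3 HSA-NRTN females below all wild-type libraries. This ratio was chosen after the values were seen and was not tested. Timp2 made up 94.8% to 99.5% of the summed TPM of the 3 inhibitors in HSA-NRTN and 97.4% to 99.9% in wild-type libraries. Mmp9 made up 30.2% to 75.5% of the summed TPM of the 7 proteases in HSA-NRTN and 47.0% to 75.7% in wild-type libraries.

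Mmp9 was also set against 9 other markers of motor neuron subtype across the libraries, 5 of fast cells (Chodl, Calca, Kcnn2, Kcng4 and Kcnq5) and 4 of slow cells (Esrrb, Esrrg, Sv2a and Kcnn3). In Mmp9 the libraries formed 2 clusters, the 2 HSA-NRTN males and the other 8, so a relation is readable only within the 8. There Pearson's r was 0.37 with Chodl, 0.40 with Kcng4, 0.27 with Kcnq5 and -0.62 with Sv2a, and none of the 9 passed (permutation test, adjusted p from 0.538 to 0.865). Spearman's rho over the 8 libraries was 0.21, 0.19, 0.21 and -0.52 for the same genes (permutation test, adjusted p = 0.977 for each). Over all 10 libraries r was 0.90 with Kcnq5, 0.80 with Kcng4 and 0.71 with Chodl (permutation test, adjusted p = 0.0235, 0.0235 and 0.0353), with rho of 0.60, 0.59 and 0.59 (permutation test, adjusted p = 0.182 for each), so these relations rest on the 2 HSA-NRTN males. With genotype means subtracted from all 10 libraries, r was 0.93 with Kcnq5, 0.73 with Kcng4 and -0.57 with Sv2a (permutation test, adjusted p = 0.0448 for each), with rho of 0.89, 0.68 and -0.72 (permutation test, adjusted p = 0.0940, 0.0940 and 0.0529), still with both males included.

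Kcnq5, a potassium channel gene, shows the pattern. It had 0.30, 0, 8.24, 5.84 and 6.41 CPM in HSA-NRTN replicates 1 to 5, against 45.4, 25.8, 28.2, 18.4 and 15.7 CPM in wild-type replicates 1 to 5. For Kcnq5 the highest HSA-NRTN library stayed under the lowest wild-type one, whereas for Mmp9 the 3 HSA-NRTN females lay within or above the range of all wild-type libraries. Against the wild-type females alone, 2 of the 3 HSA-NRTN females lay below all and 1 above all. Chodl likewise separated the groups, at 408 to 1011 CPM in HSA-NRTN and 1678 to 1937 CPM in wild-type libraries. Of the 7 fast markers 6 were tested, Mmp9 included, and all 6 had a negative log2 fold change. Chodl (-1.61, SE 0.25) just missed the threshold over all genes (edgeR, adjusted p = 0.0501), while Calca (-1.69, SE 0.34, adjusted p = 0.142) and Kcnq5 (-2.62, SE 0.76, adjusted p = 0.518) had an unadjusted p under 0.05. The remaining fast marker, Dlk1, was too low to be tested, with 47 counts over the HSA-NRTN libraries, most of them in replicate 2 at 15.7 CPM, against 3 counts over the wild-type libraries. Of the 4 slow markers all had a positive one, and Esrrg, a nuclear receptor gene (0.63, SE 0.26), had an unadjusted p under 0.05. No marker passed over all genes, and whether Mmp9 differs from the other fast markers was not tested.

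**Figure D4:**
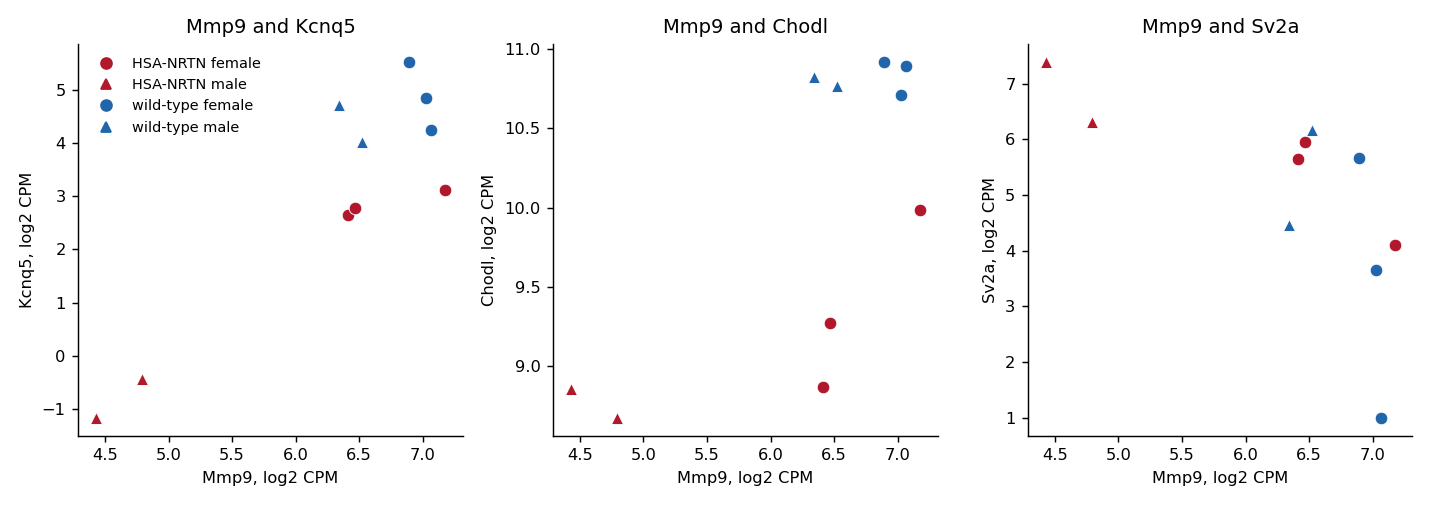
Log2 CPM of Kcnq5, Chodl and Sv2a against log2 CPM of Mmp9 in the 10 libraries, HSA-NRTN in red and wild-type in blue, circles for females and triangles for males. The 2 HSA-NRTN males form a cluster of their own at low Mmp9, and r within the other 8 libraries was 0.27, 0.37 and -0.62.

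The 5 genes most like Mmp9 across the 10 libraries, by Pearson's r of log2 CPM over 10589 genes compared, were Snap25 (0.973), a protein of synaptic vesicle fusion, Anapc10 (0.970), a subunit of the anaphase-promoting complex, Copg2 (0.966), a coat protein of Golgi vesicles, Nsun6 (0.939), an RNA methyltransferase, and Rbm15 (0.936), an RNA-binding protein. Without the 2 HSA-NRTN males r was 0.73, 0.84, 0.60, 0.43 and 0.67 for these genes. The values are a description and share the depth and pool of each library.

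Other matrix metalloproteases and Timp1 were too low to test. Of these 17 genes none passed the filter on low counts, and 9 had any count. Timp1, an inhibitor induced in injured tissue, had 73 counts, all in HSA-NRTN libraries, at 27.6 CPM in replicate 2, 4.45 CPM in replicate 1 and 0.998 CPM in replicate 4, and 0 in every wild-type library. As with Timp3, the highest value was in the library with the most glial marker RNA, and the part of that RNA was not tested. Mmp28, Mmp23 and Mmp11 had 72, 36 and 22 counts over all libraries.

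Of the related ADAM proteases, which cut proteins off the cell surface, 10 of 12 were tested, 2 with a positive and 8 with a negative log2 fold change (median -0.33), and none passed over all genes. Adam23, a member without protease activity that serves as a neuronal adhesion molecule, had 881, 753, 1133, 803 and 1527 CPM in HSA-NRTN replicates 1 to 5, against 1834, 1559, 1594, 1657 and 1798 CPM in wild-type replicates 1 to 5. The groups did not overlap, although HSA-NRTN replicate 5 came close to the lowest wild-type library. The log2 fold change was -0.73 (SE 0.22, edgeR, unadjusted p = 0.00458, adjusted p = 0.566). Of 19 ADAMTS proteases, which digest proteoglycans and process collagen, 5 were tested, 1 positive and 4 negative (median -0.25), none with an unadjusted p under 0.05.

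Of 22 activators, clearance receptors and binding partners of the metalloproteases, 14 were tested, 9 positive and 5 negative (median 0.20), none with an unadjusted p under 0.05. Bsg, which encodes an inducer of metalloprotease production, was at 241 ± 75.5 CPM in HSA-NRTN and 177 ± 34.5 CPM in wild-type mice (SD, n = 5 each), and Lcn2, a binding partner of the Mmp9 protein, at 54.1 ± 56.5 CPM in HSA-NRTN and 27.6 ± 24.3 CPM in wild-type pools. Both were named after their values were seen.

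Of 27 substrates at the cell surface and in the matrix, 18 were tested, 12 positive and 6 negative (median 0.21), and none passed over all genes. Bdnf, a neurotrophin, had 58.4, 82.7, 17.4, 38.2 and 84.3 CPM in HSA-NRTN replicates 1 to 5, against 0.69, 8.21, 9.15, 9.12 and 14.9 CPM in wild-type replicates 1 to 5. Every HSA-NRTN value was higher than every wild-type value (log2 fold change 2.73, SE 0.60, edgeR, unadjusted p = 0.000352, adjusted p = 0.239). Spp1, which encodes the matrix protein osteopontin, had a log2 fold change of 0.80 (SE 0.34, unadjusted p = 0.0340). Tnr and Acan are both parts of the perineuronal net, the matrix around neurons. Tnr, which encodes tenascin-R, was at 58.1 ± 12.8 CPM in HSA-NRTN and 87.2 ± 7.03 CPM in wild-type mice (SD, n = 5 each; log2 fold change -0.58, SE 0.24), with 4 of 5 HSA-NRTN libraries under the lowest wild-type library. Acan, which encodes aggrecan, was at 13.1 ± 2.46 CPM in HSA-NRTN and 26.1 ± 16.0 CPM in wild-type pools (log2 fold change -0.99, SE 0.44), again with 4 of 5 under it. Neither passed (edgeR, adjusted p = 0.945 for Tnr and 0.968 for Acan).

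In the authors' deposited table of the genotype comparison, Mmp16 had a log2 fold change of -1.18 with an adjusted p of 0.0562. The authors' log2 fold changes are moderated (drawn toward no change), unlike those of the fits here, so their sizes are not directly comparable. In the authors' deposited table Mmp9 stood at -0.72 with an adjusted p of 0.276 and Timp3 at 0.86 with an adjusted p of 0.327, and no member was under 0.05. In the authors' deposited table the unadjusted p of Mmp9 was 0.00806 (DESeq2, Wald test). The edgeR fits here gave 0.182 without covariates and 0.0160 with sex as a covariate. The methods differ, so these p-values are not like for like.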

How the data were processed

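Each library was a Smart-seq2 preparation of polyadenylated RNA cut with Tn5, per the labels' protocols, without strand marks or molecular identifiers. The submitters' processing notes name STAR 2.5.0a, HTSeq and build GRCm38.p6, and the authors deposited raw counts per gene. They also deposited a signal, the counts divided by 1 size factor per library, and a DESeq2 table of log2 fold changes, a test score and p-values, raw and adjusted. Of each library's entries, 57.6% to 86.5% named no gene and stayed out, as did 92 spike-ins.

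Counts were tested in R 4.3.3 with edgeR 4.0.16 (filterByExpr, TMM, quasi-likelihood F test, no covariate; genotype in the model for sex, genotype and sex for the interaction), adjusted by Benjamini-Hochberg over 11630 genes and called under 0.05. The SE of a log2 fold change was back-calculated as its absolute size over the square root of the F statistic. It is thus not a separate estimate of spread. Levels are CPM with TMM library sizes, or TPM per merged exon length of GENCODE M21. Correlations used log2 CPM with a prior count of 2 and 100000 resamples. DESeq2 1.42.0 and limma 3.58.1 were alternatives. The members and lists were chosen with earlier results of these data known. Of each list, up to 4 genes with an unadjusted p under 0.05 were named, in order of p; Kcnq5 and Chodl were also named with per-library values after these were seen. Tests were checked on simulated data with 2-fold, 4-fold and 8-fold changes. Of these, the genotype test called 4.69%, 43.1% and 71.9%, and the sex test 3.17%, 45.5% and 61.1%. The interaction test called 0%, 0% and 19.7%. Missing the threshold therefore does not show that a gene is unchanged. Replicates were numbered in record order, and 1 library stands for 1 mouse.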

Additional observations from a re-analysis of the deposited data

Results flagged for a closer look

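In 19 combinations of a member and a group with any count, 5 held a library whose gap to the nearest other library was over 0.71 of the range of its group. For normally distributed values chance gives about 1 in 20. CPM values with many zeros are not so distributed, so no excess over chance can be read from the number. Mmp16 in wild-type replicate 5, a male, was at 86.1 CPM, above the other 4 wild-type libraries. Mmp24 in wild-type replicate 2, also a male, was at 11.3 CPM. Mmp14 was at 3.21 CPM in HSA-NRTN replicate 5. Mmp2 was at 0.74 CPM in HSA-NRTN replicate 5 and at 0.59 CPM in wild-type replicate 5. For Mmp14 and Mmp2 the other libraries of the group were at 0, so any count in 1 library gives such a gap.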

How the results depend on the processing

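No member was called for genotype under any of the 13 alternatives or with any library left out. The number of genes called, 1 in the reported fit, was 126 with DESeq2, 81 with no filter beyond 1 count, 12 and 3 in limma voom with and without quality weights, 10, 5 and 0 with genes detected, sex and the runs of animal numbers as covariates, 2 in the later run of animal numbers alone (chosen after seeing the data), 0 in females or males alone and 0 to 13 with 1 library left out. For sex, 1 gene was called, 209 with DESeq2 and 315 with no filter, with 1 member among them (Mmp9) in both, and 1 to 176 with 1 library left out, the most without wild-type replicate 1. For the interaction, 0 genes were called, 16 with DESeq2, 35 with no filter and 0 with any library left out, with 598 at an unadjusted p under 0.05. The genotype log2 fold change of Mmp16 ran from -3.07 to -0.80 over the alternatives (adjusted p from 0.112 to 0.998), and that of Mmp9 from -1.83 to -0.25 (unadjusted p from 0.00625 to 0.431).

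Small differences turned sign. For genotype, Timp4 was at -0.34 with quality weights, -0.69 without replicate 2 of HSA-NRTN and 1 of wild-type, -0.22 in the later run, and -0.41 to 0.83 with 1 library left out. Mmp15 was at 0.31 with genes detected as a covariate, 0.34 in males and -0.60 to 0.13 with 1 left out. Mmp24 was at -0.57, -2.38 and -0.21 to 1.86 under the same settings, and Timp2 at 0.26 in males. For sex, Mmp16 was at -0.48 and Timp2 at 0.12 without HSA-NRTN replicates 1 and 2, and Timp4 ran from -1.69 to 0.43 with 1 left out. For the interaction, the runs as a covariate gave 0.22 for Mmp15 and -0.35 for Timp3, and with 1 left out Mmp17 ran from -0.24 to 1.02 and Timp4 from -1.17 to 7.60. Of the neighbouring levels 3 pairs differed, 1 without length scaling (Timp2 over Mmp9) and 2 to 4 with 1 library left out. The ratio of Mmp15 to Mmp16 was -0.14 (log2) with longest-transcript lengths and -0.10 without length scaling, and with 1 left out that of Timp3 to Mmp24 ran from -0.24 to 0.56 and that of Mmp24 to Timp4 from -0.84 to 0.25. The 3 relations of Mmp9 with markers fell to 0 without the 2 farthest libraries and ran from 0 to 3 with 1 left out (0 without HSA-NRTN replicate 1 or 2), and 3 were called with genotype means subtracted (Kcnq5, Kcng4 and Sv2a in place of Chodl); r with Kcnn2 was -0.072 without the 2 farthest, -0.31 with genotype means subtracted and -0.12 to 0.16 with 1 left out, and r with Calca was -0.078 with genotype means subtracted. The cause was not tested. No paired analysis was possible because replicates were numbered in record order and no label pairs mice. Low counts limit Mmp2, Mmp14, Mmp24, Timp3 and Timp4, which held 0 counts in 1 or more libraries. Timp3 had 42 counts in HSA-NRTN replicate 2, the library with the fewest gene counts, and 0 in wild-type replicates 1 and 4.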

Other observations

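Among the activators and binding partners, 2 genes that did not pass the filter on low counts were noticed after their values were seen, and neither was tested. Pcsk5, a convertase that cuts precursor proteins, was at 0, 0, 0.55, 0 and 0 CPM in HSA-NRTN replicates 1 to 5, against 7.34, 4.81, 4.22, 7.92 and 0 CPM in wild-type replicates 1 to 5. Cd44, a surface receptor that can hold Mmp9 protein, was at 14.5, 1.08, 0, 6.84 and 1.48 CPM in HSA-NRTN replicates, against 0 CPM in all 5 wild-type libraries.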
